A study of Mus musculus with 6 samples.

Results

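The receptors described here are the odorant receptor genes whose symbols run from Olfr464 to Olfr541. They were chosen by symbol, though with earlier results of these data known. Each gene is represented by 1 probe set from those that carry a single gene symbol. RefSeq holds 60 genes in this range, 54 of them were measured, out of 19938 genes in all, and the other 6 (Olfr487, Olfr503, Olfr506, Olfr519, Olfr533 and Olfr538) stand only on probe sets shared between several receptors. In the RefSeq annotation 52 of the 54 lie on chromosome 7, while Olfr464 lies on chromosome 11 and Olfr466 on chromosome 13. On chromosome 7 they form a large cluster from Olfr467 to Olfr518 (38 measured), a second cluster from Olfr522 to Olfr541 (12 measured) and the separate pair Olfr520 and Olfr521. All but 1 belong to class II by their subfamily names, the exception being Olfr504 of the class I subfamily MOR40.

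The cells came from the main olfactory epithelium of C57BL/6 embryos of age E18.5 and were sorted for EGFP. This reporter sits in the targeted allele and is driven by the gene's own promoter, so both groups bear at least 1 targeted copy, and no group has 2 intact ones. Sets of 3 arrays each were made from Fezf1+/- cells (1 targeted copy, called heterozygous) and Fezf1-/- cells (no intact copy, called null). Affymetrix 1.0 ST arrays gave log2 signals. Whether a replicate is an embryo, a litter or a pool is not in the labels, and a p-value here therefore weighs a difference only against the scatter of these samples, which may be technical. Fezf1, a zinc-finger transcription factor, stood at 11.25, 11.12 and 11.30 on the heterozygous and 5.56, 5.92 and 6.28 on the null arrays.

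Odorant receptors are G protein-coupled receptors with which olfactory sensory neurons detect volatile chemicals. Each mature neuron transcribes a single receptor gene, chosen from many that lie in tandem clusters, and the other receptor genes of that cell stay silent. A receptor signal from a population of cells therefore depends on how many cells chose that gene as well as on transcript per cell, and in these bulk samples fewer cells of a type and less RNA per cell cannot be told apart. Class II is the larger receptor class, and neighbours in a cluster are often close relatives, which the mouse MOR nomenclature groups into subfamilies.

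The 54 receptors fall into 13 MOR subfamilies, of which MOR204 is the largest with 29 measured members. How alike these relatives are can be seen at the start of their coding sequences. The 5 MOR204 receptors shown are a pair of immediate neighbours with nearly the same letters (Olfr473 and Olfr472), the other receptors of the subfamily whose decrease passed the test with all 6 or with 5 arrays (Olfr476 and Olfr491), and a receptor from further along the cluster without a detectable difference (Olfr508). Each is the first 50 coding bases on the plus strand from RefSeq, build GRCm38.p6, at chr7:107933522-107933571, chr7:107902719-107902768, chr7:107967399-107967448, chr7:108316896-108316945 and chr7:108629994-108630043 in that order, and capitals mark bases that differ from Olfr473.
Olfr473: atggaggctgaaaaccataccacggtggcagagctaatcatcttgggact
Olfr472: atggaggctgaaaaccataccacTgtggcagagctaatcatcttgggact
Olfr476: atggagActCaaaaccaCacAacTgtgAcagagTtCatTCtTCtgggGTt
Olfr491: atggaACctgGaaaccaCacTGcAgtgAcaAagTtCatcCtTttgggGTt
Olfr508: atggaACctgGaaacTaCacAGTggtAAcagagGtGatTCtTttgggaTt
Olfr472 differs from Olfr473 at 1 of the 50 bases, Olfr476 at 14, Olfr491 at 15 and Olfr508 at 16. Over the 24 measured MOR204 genes whose RefSeq model begins at the start codon, 78 of 276 pairs matched at 90% or more of the aligned bases, and Olfr482 with Olfr492 and Olfr484 with Olfr493 were identical over these 50. The probe sets may therefore bind transcripts of relatives, and single values are uncertain to that extent.

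The array of null replicate 1 stood apart, so differences and counts of calls below are given from all 6 arrays and from the 5 arrays without it. Its correlations with the other arrays across genes lay between 0.905 and 0.935, against 0.975 to 0.995 among the other 5. Of 16 mature olfactory neuron markers, 15 were lower there than on both other null arrays, as were 48.1% of all genes. Their summed signal was 4543 on this array, 13126 and 13721 on the other null arrays, and 19254 to 26528 on the heterozygous arrays. Immature neuron markers were lower in 14 of 15, with a summed signal of 24873 against 50088 and 50381 on the other null arrays and 41574 to 46861 on the heterozygous arrays. Sustentacular (supporting) cell markers were higher in 10 of 11, with 20937 against 10379 and 9419, and 11883 to 15298 in heterozygous cells. Markers of mesenchyme were also higher, with all 10 measured above both other null arrays and a summed signal of 18525 against 1893 and 1249 there and 1142 to 2603 in heterozygous cells. Myeloid markers were above in 11 of 11 (3410 summed, against 468 to 634 on the other 5 arrays), ensheathing glia markers in 6 of 7 (5424, against 584 to 905) and endothelial markers in 8 of 8 (958, against 264 to 406). Horizontal basal markers were above in 5 of 6, microvillar markers in 5 of 7 (1 below) and erythroid markers in 3 of 4. Progenitor markers (4 above and 5 below, of 10) and vomeronasal neuron markers (2 above and 4 below, of 7) were mixed. The share of all genes above both was not counted. The lowest deposited value was 2.14 log2 units, so the signal of a marker alone does not show that its cell type was present. The part of these cell types in the receptor results was not tested.

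With all 6 arrays, 3 of the 54 receptors fell in null cells and 0 rose at an adjusted p of 0.05 by limma, where 0.456% of all genes tested were called lower and 0.0953% higher. Without adjustment, 20 members were lower at a p under 0.05 (background 5.25%) and 0 were higher (background 4.23%). The receptors that fell were Olfr536, by far the most, and Olfr476 and Olfr473 of the large cluster. A further 6 fell when null replicate 1 was left out, namely Olfr466, Olfr491, Olfr527, Olfr532, Olfr539 and Olfr541. In those 5 arrays 9 fell and 0 rose by limma, against 1.67% and 0.993% of all genes, and without adjustment 20 members were lower (background 8.68%) and 9 higher (background 7.63%) at a p under 0.05. As the arrays differ little in their overall level, with medians between 5.82 and 5.95, the values were used as deposited.

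**Figure D1:**
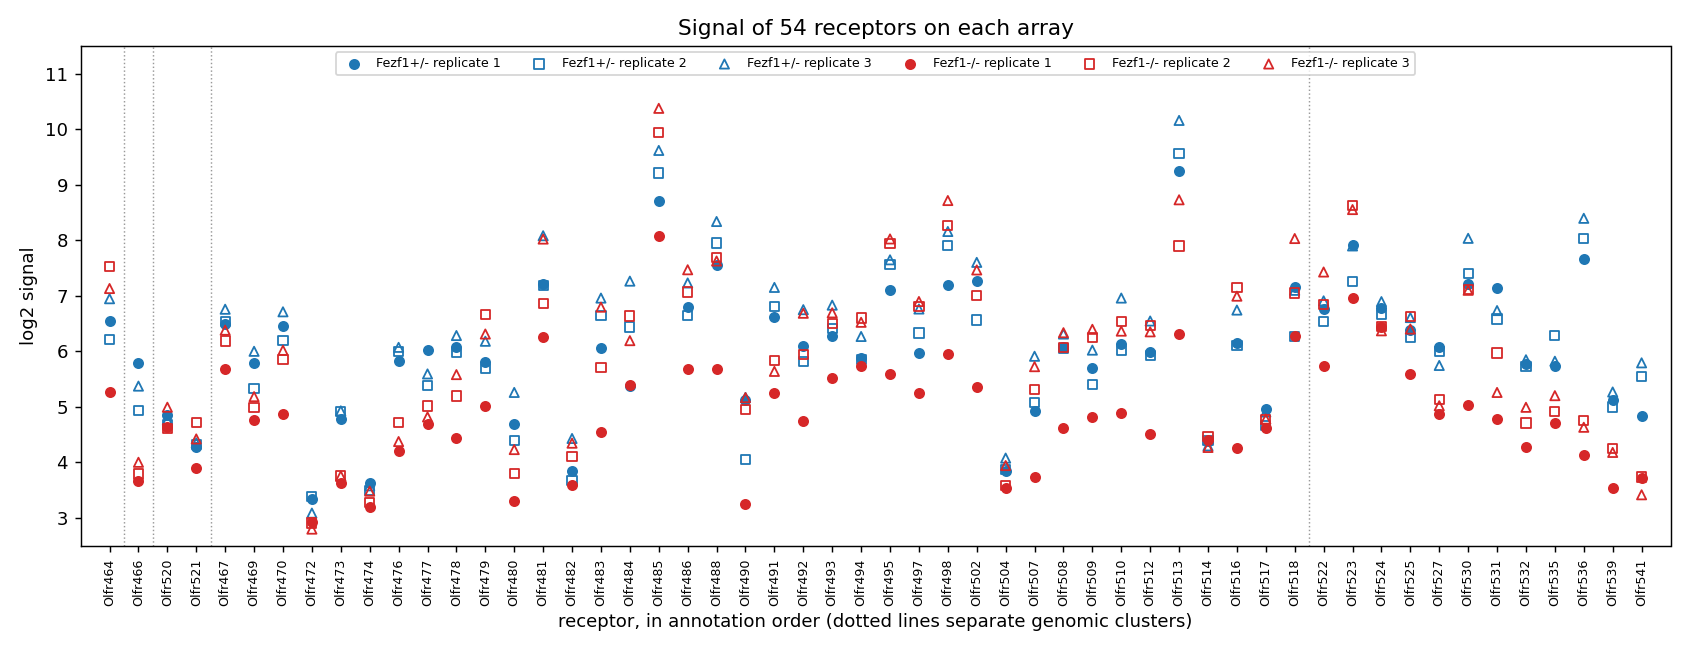
Log2 signal of the 54 receptors (y axis) in annotation order (x axis), with heterozygous arrays in blue and null arrays in red and the replicate by symbol. Null replicate 1 (filled red circles) lies below both other null arrays in 49 of 54 receptors, as it does in 48.1% of all genes.

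Olfr536, a receptor of subfamily MOR252 in the second cluster, fell furthest. Its signals were 7.66, 8.03 and 8.40 on the heterozygous arrays and 4.14, 4.75 and 4.63 on the null arrays. The groups lay far apart, and the null values were near the lower quartile of the arrays (4.30 to 4.44). The difference was -3.52 (SE 0.24, limma adjusted p = 0.0042), and -3.34 (SE 0.21, adjusted p = 0.000725) without null replicate 1. Whichever array was left out it remained called, with adjusted p between 0.000725 and 0.0396. Its subfamily relative Olfr530 stood at 7.21, 7.41 and 8.03 against 5.03, 7.12 and 7.10. There the null value of replicate 1 made most of the difference of -1.13 (adjusted p = 0.617), which was -0.44 (SE 0.23, adjusted p = 0.407) in 5 arrays.

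In the RefSeq promoter table, Olfr536 is also 1 of only 4 measured members whose annotated start is not a start codon. It is therefore shown here. The 250 bases before its annotated start (GRCm38.p6, chr7:140507319-140507568, minus strand, written 5′ to 3′) hold 2 matches to CCCNNGGG, the core of the Ebf binding motif, in capitals.
Olfr536: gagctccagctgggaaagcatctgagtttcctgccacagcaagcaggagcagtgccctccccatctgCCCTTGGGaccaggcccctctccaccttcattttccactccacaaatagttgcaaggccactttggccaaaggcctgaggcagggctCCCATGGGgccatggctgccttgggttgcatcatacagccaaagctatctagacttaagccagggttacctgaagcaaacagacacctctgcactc
The matches begin 183 and 96 bases before the start. Ebf factors and the LIM homeodomain factor Lhx2 are known regulators of odorant receptor promoters. CCCNNGGG, which reads the same on both strands, occurred in 3 of 50 windows of measured members (Olfr507, Olfr523 and Olfr536), or 6.0%, against 2.93% of 888 windows of other odorant receptors and 13.4% of 27025 windows in the table. TAATNA, a homeodomain core searched on both strands, occurred in 33 of the 50 (66.0%), against 65.9% and 26.8%. Each window searched held the 250 bases before the annotated start and the first 50 bases from it. In 46 of the 50 windows of measured members this annotated start is the start codon. Such windows are therefore not promoters in the strict sense, and their letters say nothing about binding.

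In the large cluster, Olfr473 fell by the smaller amount but with little spread. It stood at 4.79, 4.92 and 4.93 on the heterozygous and 3.62, 3.75 and 3.76 on the null arrays. All of the latter lay below the lower quartile of their arrays, where the deposited values depend on an estimated background. The difference was -1.17 (SE 0.09, limma adjusted p = 0.00697), and -1.12 (SE 0.09, adjusted p = 0.00263) without null replicate 1. It was no longer called without heterozygous replicate 2 (adjusted p = 0.0576), heterozygous replicate 3 (0.0612) or null replicate 2 (0.0561), with differences of -1.15, -1.14 and -1.19. Its neighbour Olfr472, with nearly the same coding start, was dim throughout at 3.33, 3.38 and 3.09 against 2.93, 2.91 and 2.80, a difference of -0.39 (SE 0.11, adjusted p = 0.339) in 6 arrays and -0.42 (adjusted p = 0.155) in 5.

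Olfr476, the next called receptor of MOR204, stood at 5.82, 6.00 and 6.07 on the heterozygous and 4.20, 4.71 and 4.37 on the null arrays. The groups did not overlap and were separated by more than 1 log2 unit. The values of null replicates 1 and 3 lay below the lower quartile of their arrays. The difference was -1.54 (SE 0.16, limma adjusted p = 0.0215), and -1.42 (SE 0.14, adjusted p = 0.00441) without null replicate 1. Its call was lost without heterozygous replicate 1 (adjusted p = 0.0836), replicate 2 (0.119) or replicate 3 (0.143) and without null replicate 3 (0.0963), while its difference stayed between -1.68 and -1.42. The count of called members was accordingly 1 without heterozygous replicate 2 or 3, and 2 without null replicate 2 or 3.

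The 6 further receptors had similar differences with 6 and with 5 arrays. Among the alternative fits described below, Olfr466, Olfr491, Olfr532 and Olfr539 passed only without null replicate 1 or with array weights. Olfr541 of MOR253 stood at 4.84, 5.55 and 5.79 against 3.72, 3.74 and 3.42, and differed by -1.77 (SE 0.26, adjusted p = 0.0653) in 6 and -1.82 (SE 0.27, adjusted p = 0.0235) in 5 arrays. Olfr466 of MOR209, on chromosome 13, stood at 5.79, 4.93 and 5.37 against 3.66, 3.79 and 4.00 (-1.54, adjusted p = 0.0681, and -1.47, adjusted p = 0.0278). Olfr491 of MOR204 stood at 6.62, 6.81 and 7.15 against 5.26, 5.83 and 5.64 (-1.28, adjusted p = 0.0797, and -1.12, adjusted p = 0.0226). In each of these receptors every null value lay below every heterozygous value.

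The other receptors in that group were Olfr532, Olfr527 and Olfr539. Olfr532 of MOR251 stood at 5.77, 5.73 and 5.85 against 4.28, 4.71 and 4.99 (-1.12, adjusted p = 0.0958, and -0.93, adjusted p = 0.0112). Olfr527, of the same subfamily, stood at 6.08, 6.00 and 5.75 against 4.87, 5.14 and 5.02 (-0.93, adjusted p = 0.0561, and -0.86, adjusted p = 0.0211). With 6 arrays Olfr527 was called after quantile normalisation (adjusted p = 0.0336) or centring (0.0482) and with array weights (0.00618). It was not called with a floor of 4 log2 units (0.113), the replicate block (0.147), trend and robust settings (0.0589) or averaged probe sets (0.0565). Olfr539 of MOR253 stood at 5.13, 5.0 and 5.27 against 3.54, 4.24 and 4.18 (-1.14, adjusted p = 0.126, and -0.92, adjusted p = 0.00995). All null values of Olfr466, Olfr539 and Olfr541 were below the lower quartile of their arrays.

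**Figure D2:**
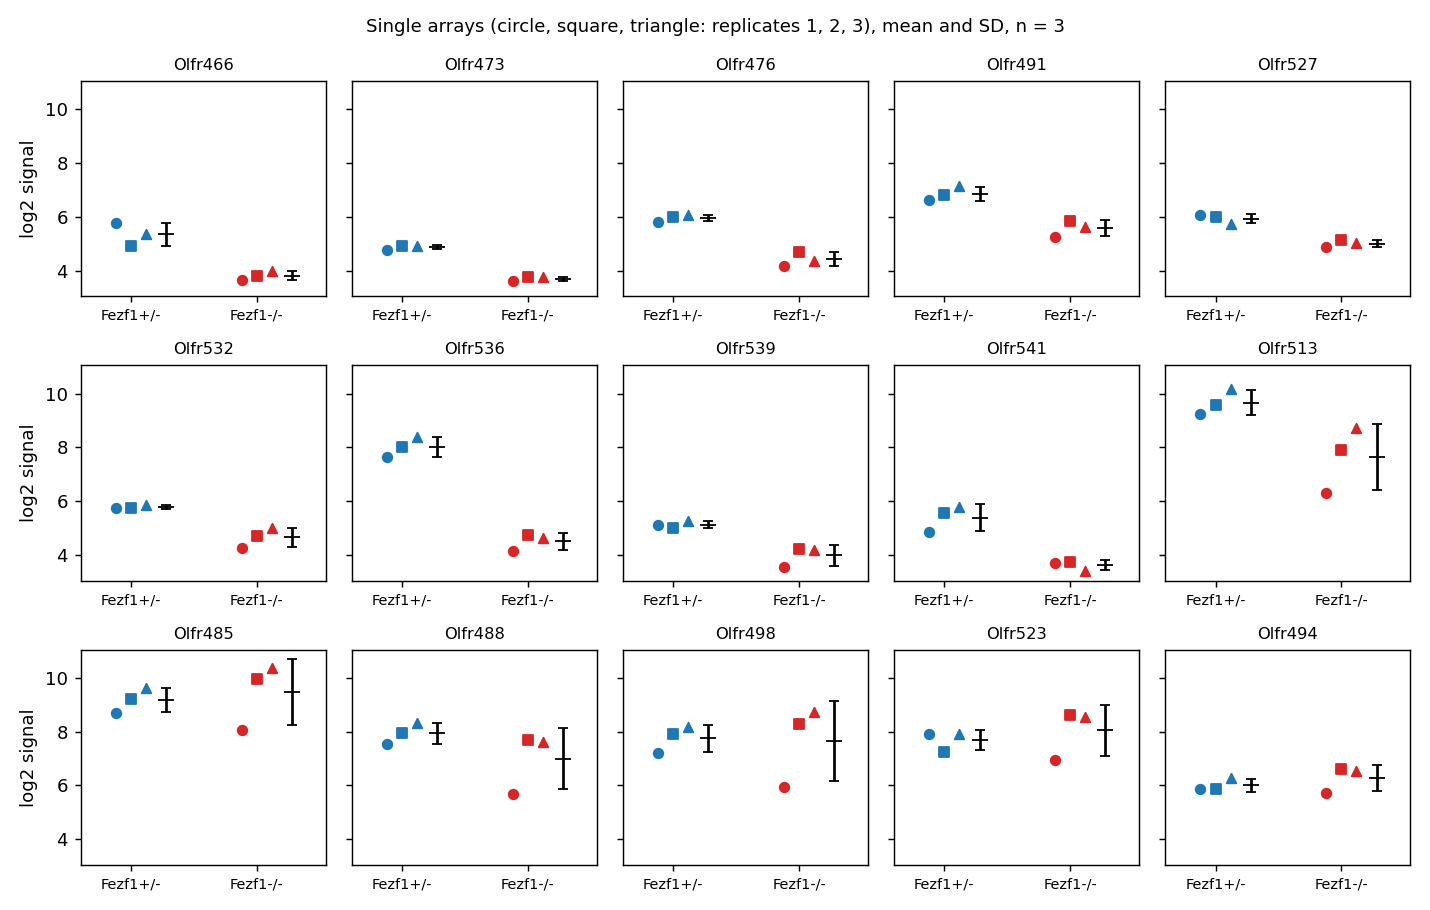
Log2 signal of 15 receptors on each array, with heterozygous values in blue, null values in red and the mean and SD (n = 3) in black. In the first 9 panels the groups do not overlap, while in the last 5 null replicate 1 lies -2.53 to -0.83 log2 units from the mean of the other null arrays.

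None of the other 4 among the 5 receptors with the highest heterozygous mean passed the test in 6 or in 5 arrays. Olfr513, the only measured MOR195 receptor, stood at 9.24, 9.56 and 10.16 on the heterozygous and 6.32, 7.90 and 8.73 on the null arrays. Its groups did not overlap, but the null values spread over more than 2 log2 units, and the difference of -2.01 (SE 0.62, adjusted p = 0.384) did not pass, nor did the -1.34 (SE 0.32, adjusted p = 0.0992) of 5 arrays. Olfr485 of MOR204 stood at 8.70, 9.21 and 9.62 against 8.07, 9.94 and 10.38, so that null replicates 2 and 3 exceeded all heterozygous values while null replicate 1 lay below them. It differed by 0.29 (SE 0.62, 95% interval -1.22 to 1.79) in 6 arrays and by 0.98 (SE 0.27, adjusted p = 0.137) in 5, and by -0.17 without null replicate 3.

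Olfr498, also of MOR204, stood at 7.20, 7.91 and 8.16 against 5.96, 8.27 and 8.72, the same arrangement as in Olfr485. Its difference was -0.11 (SE 0.74) in 6 arrays and 0.74 (SE 0.29, adjusted p = 0.275) in 5. Olfr488 stood at 7.56, 7.95 and 8.34 against 5.68, 7.70 and 7.63, and differed by -0.95 (adjusted p = 0.661) and -0.29 (adjusted p = 0.565). Of both, null replicate 1 alone lay clearly below the heterozygous range.

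The largest positive differences were small and did not pass. Olfr523, the only MOR104 receptor, stood at 7.92, 7.26 and 7.90 against 6.95, 8.62 and 8.55. It differed by 0.35 (SE 0.48, adjusted p = 0.823) in 6 arrays and by 0.90 (SE 0.21, adjusted p = 0.0878) in 5. Olfr494 of MOR204 stood at 5.88, 5.85 and 6.27 against 5.73, 6.60 and 6.52 (0.29, adjusted p = 0.747, and 0.56, adjusted p = 0.12). Without null replicate 1, 11 receptors had both null values above all heterozygous values (background 19.9%), and none of the 54 did with all 6 arrays (background 9.72%). These 11 were Olfr464, Olfr479, Olfr485, Olfr494, Olfr495, Olfr497, Olfr498, Olfr509, Olfr516, Olfr521 and Olfr523, and their smallest adjusted p was the 0.0878 of Olfr523.

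Receptors whose null values all lay below the heterozygous values numbered 22 of 54 (40.7%), where 8.77% of all genes did, 59 of 109 class I receptors (54.1%) and 379 of 864 other odorant receptors (43.9%). Leaving out null replicate 1, which cannot undo this order, added no further member (background 16.3%). All 9 measured receptors from Olfr467 to Olfr478, at one end of the large cluster, were among them, and so were all 8 from Olfr527 to Olfr541 at the end of the second cluster. Of the 29 measured from Olfr479 to Olfr518, 3 were among them (Olfr480, Olfr491 and Olfr513), of the 4 from Olfr522 to Olfr525 it was Olfr524, and the remaining one was Olfr466 of chromosome 13. The stretches were delimited after their values were seen and carry no test. Their medians and counts, here and below, follow in part from that choice.

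The 9 receptors from Olfr467 to Olfr478 all belong to MOR204. Their median difference was -0.82, from -1.54 to -0.25, and -0.62 without null replicate 1. Olfr477 (5.66 and 4.84 as group means) differed by -0.82 (SE 0.19, adjusted p = 0.21), Olfr478 by -1.04 (SE 0.29, adjusted p = 0.321) and Olfr469 by -0.73 (SE 0.20, adjusted p = 0.318). In 5 arrays they differed by -0.75, -0.73 and -0.62 (adjusted p = 0.114, 0.0642 and 0.194), so that none passed in either. The 20 other MOR204 receptors, from Olfr480 to Olfr510, had a median of -0.35, and 0.09 without null replicate 1, and 2 of these 20 had all null values below the heterozygous ones. Nearly identical coding starts occur on both sides of this division. Olfr469 and Olfr470 match Olfr492 at 49 and 49 of 50 coding bases, and the 3 receptors differed by -0.73, -0.88 and -0.43 in 6 arrays. In 5 arrays Olfr469 and Olfr470 differed by -0.62 (SE 0.20) and -0.52 (SE 0.16), while the sign of Olfr492 turned, at 0.09 with a 95% interval of -0.66 to 0.84 that includes both other values.

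Olfr527 to Olfr541 include members of MOR251, MOR252 and MOR253. Their median difference was -1.14, from -3.52 to -0.93, and -0.93 without null replicate 1, and 5 of the 8 were called in 5 arrays. Olfr531 of MOR251 stood at 7.14, 6.58 and 6.73 against 4.77, 5.97 and 5.26 (-1.48, adjusted p = 0.192, and -1.20, adjusted p = 0.0614), and Olfr535 of MOR253 at 5.73, 6.28 and 5.82 against 4.70, 4.92 and 5.20 (-1.0, adjusted p = 0.149, and -0.88, adjusted p = 0.0669). Another 5 receptors, with lower numbers in their names, lie within the same cluster, and in each of them all null values were below the heterozygous ones. Olfr60 differed by -1.49, Olfr45 by -1.12, Olfr61 by -0.98, Olfr53 by -0.90 and Olfr46 by -0.49, none past the threshold in 6 arrays. In 5 arrays Olfr61 fell (-0.87, adjusted p = 0.021), and the others differed by -1.31, -0.98, -0.70 and -0.27 in the order Olfr60, Olfr45, Olfr53 and Olfr46, without passing. Of the 8 receptors in the stretch, 5 (Olfr530, Olfr535, Olfr536, Olfr539 and Olfr541) are also named on probe sets for several receptors, which were not used.

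**Figure D3:**
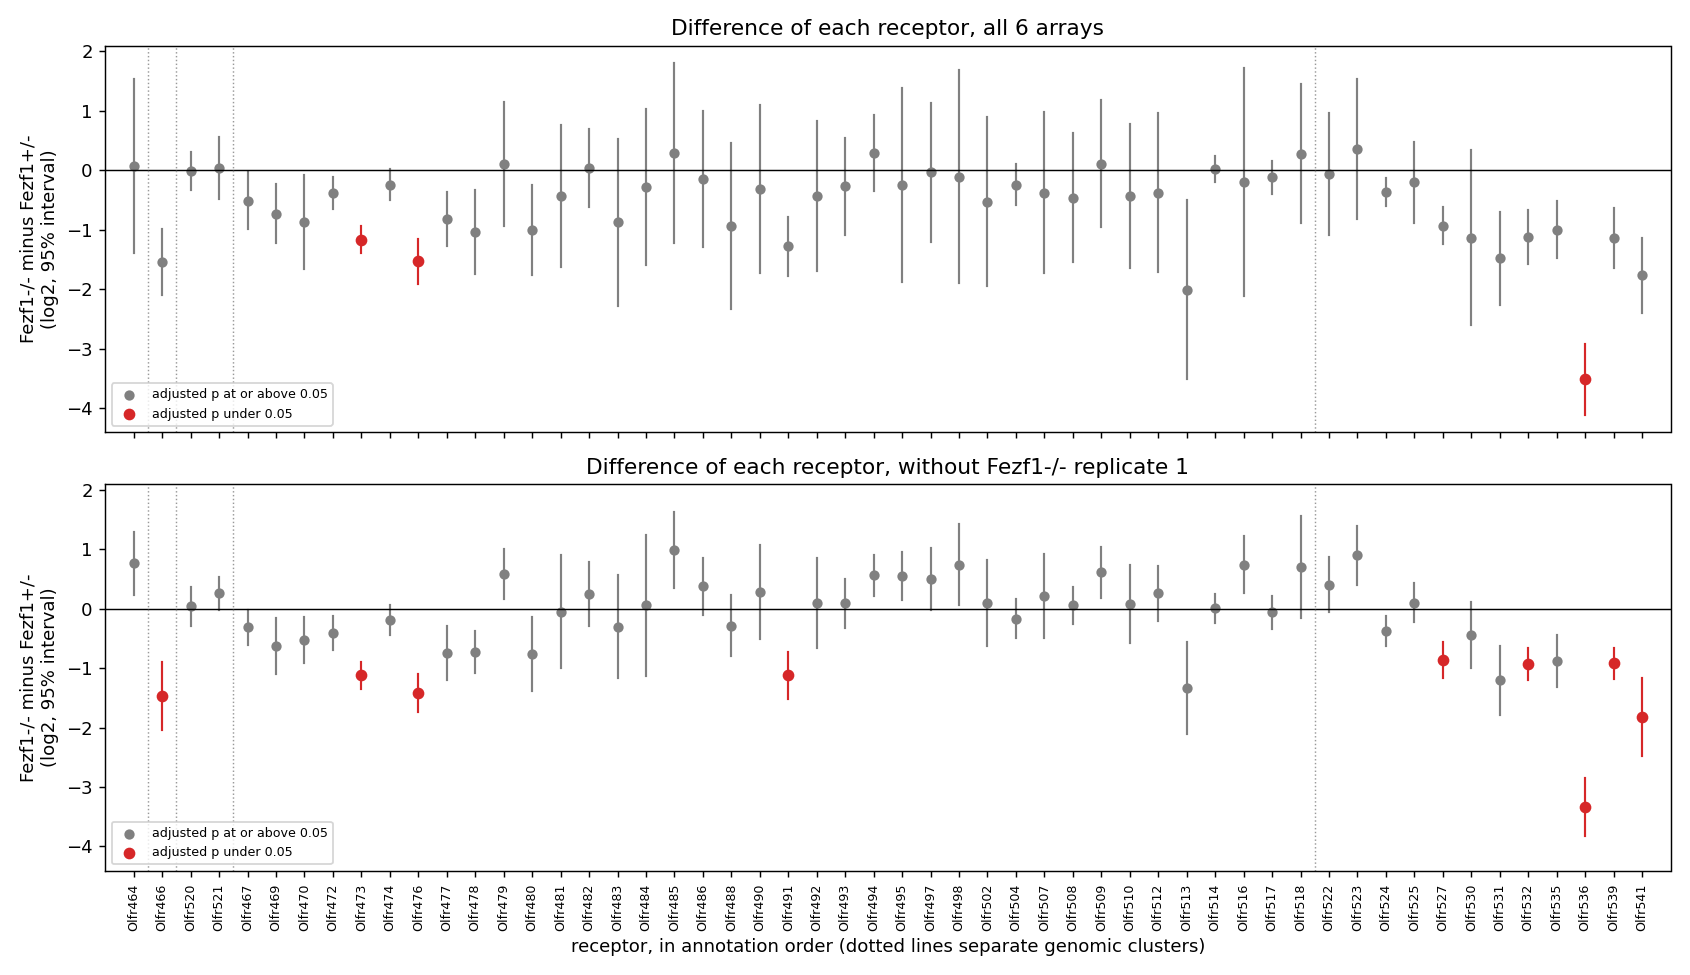
Null minus heterozygous difference (log2, with its 95% interval) of each receptor in annotation order, from all 6 arrays above and without null replicate 1 below, with receptors past an adjusted p of 0.05 in red. Olfr467 to Olfr478 and Olfr527 to Olfr541 lie below 0 in both panels, while Olfr520 and Olfr521 and most receptors from Olfr479 to Olfr525 scatter about 0 in the lower one.

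Of the measured genes in and beside the clusters that encode no odorant receptor, none was called lower in 6 or in 5 arrays. Over all genes 0.456% and 1.67% were called lower, and at those shares a call among so few genes would be unlikely. Within the second cluster, Cd163l1 differed by 0.25 (adjusted p = 0.536) and 5830411N06Rik by 0.19 (adjusted p = 0.711), and both by more in 5 arrays (0.29 and 0.30, adjusted p = 0.27 and 0.29). Among the 3 nearest on either side, Cyp2e1, a cytochrome P450 gene beside Olfr541, differed by 0.29 (adjusted p = 0.733), and by 0.01 in 5 arrays. Sprn, on the other side, differed by 0.64 (adjusted p = 0.0759) and rose by 0.68 (adjusted p = 0.0227) without null replicate 1. Beside the large cluster, Ovch2 differed by -0.11 and Nlrp10 by 0.79 (adjusted p = 0.74 and 0.343), and by -0.13 and 0.68 (adjusted p = 0.605 and 0.213) in 5 arrays.

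Across all 54 receptors the median difference was -0.38, and 44 had a negative difference, where the median of all genes was 0.02 and 45.2% of genes were negative. Without null replicate 1 the median was -0.02 and 27 were negative, beside 0.02 and 44.7% for all genes. On the single null arrays the median receptor lay -1.25, -0.21 and -0.01 from its heterozygous mean in replicates 1, 2 and 3, and on the heterozygous arrays -0.09, -0.13 and 0.28. Null replicate 1 thus held the low values of most members, and heterozygous replicate 3 was the highest heterozygous array in 42 of 54, where it was so in 7449 of the 19938 genes. A missing call leaves much room in 6 arrays. There the lower 95% limit of 35 of the 51 receptors not called lay beyond a 2-fold decrease. In 5 arrays it did so for 9 of 45. The whole 6-array interval of Olfr541, -2.40 to -1.14, lay beyond a 2-fold decrease.

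Beside them, the 109 measured class I receptors from Olfr543 to Olfr693, the next large group on the same chromosome, had a median of -1.04, and -0.80 in 5 arrays. The 864 other odorant receptors had -0.69 and -0.37. Called lower were 3 of 54, 2 of 109 (1.83%) and 73 of 864 (8.45%) in 6 arrays, and 9 (16.7%), 19 (17.4%) and 161 (18.6%) in 5. Differences below 0 in 5 arrays were found in 27 of 54, 99 of 109 and 624 of 864. The same arrays gave all these values, and no test of the difference between the groups of receptors was made.

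**Figure D4:**
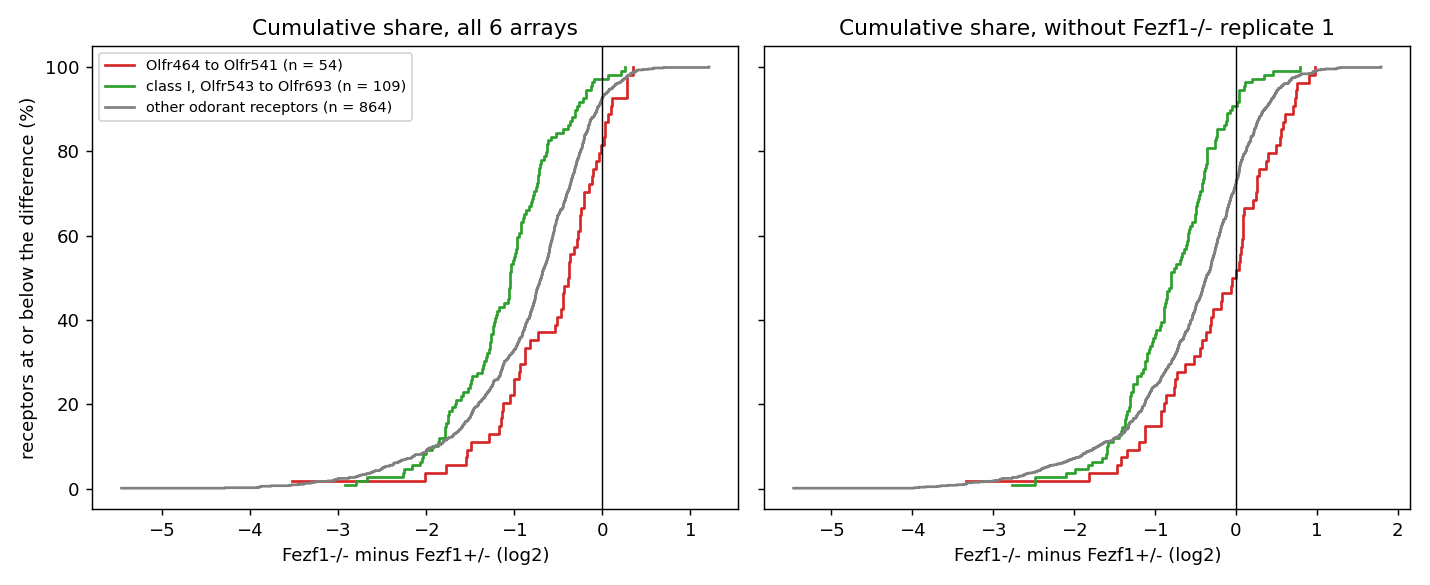
Cumulative share of receptors (y axis, %) at or below each null minus heterozygous difference (x axis, log2) for Olfr464 to Olfr541, class I receptors and all other odorant receptors. In both panels the curve of Olfr464 to Olfr541 lies to the right at the middle, with medians of -0.38 and -0.02, against -1.04 and -0.80 for class I.

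Of the genes listed for receptor choice and function, none of 16 listed under receptor transcription and silencing was called by limma in 6 or in 5 arrays. These 16, which include the dim Rag1 (group means of 4.01 and 4.34), had medians of -0.16 and 0.06. At an unadjusted p under 0.05, 2 of them were lower in 6 arrays (background 5.25%), Dnmt3a (-0.39, adjusted p = 0.447) and Ebf4 (-0.82, adjusted p = 0.46). In 5 arrays these differed by -0.27 and -0.48 (adjusted p = 0.275 and 0.0766). Lhx2 stood at 11.40, 10.95 and 11.24 against 10.23, 11.39 and 11.53, overlapping, with differences of -0.15 in 6 and 0.26 in 5 arrays. Of 10 genes of receptor trafficking and feedback, none was called in 6 arrays by limma (3 lower at an unadjusted p under 0.05, background 5.25%). Its median was -0.52, and -0.23 in 5 arrays, where 1 was called lower (background 1.67%). This was Adcy3, the cyclase of odour transduction whose expression follows that of a receptor, with -0.93 (adjusted p = 0.0432) in 5 arrays and -1.28 (adjusted p = 0.263) in 6.

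None of 16 transduction genes was called in 6 arrays by limma, although 11 were lower at an unadjusted p under 0.05 (background 5.25%). In 5 arrays 5 fell (background 1.67%), and the medians were -1.18 in 6 and -0.84 in 5 arrays. Omp, the marker of mature olfactory neurons, stood at 11.84, 11.82 and 12.12 against 9.09, 10.77 and 10.84. It differed by -1.69 (SE 0.48, adjusted p = 0.327) in 6 arrays, without passing, and fell by 1.12 (SE 0.12, adjusted p = 0.00702) in 5. The 16 mature neuron markers had a median of -1.25 with 0 called by limma in 6 arrays (12 lower at an unadjusted p under 0.05). In 5 arrays the median was -0.89, with 6 called lower (background 1.67%). All of these markers but Kirrel2 are also on the transduction or the trafficking list, and Adcy3 is on both. The 5 called transduction genes are among the 6 called markers, so the counts of these lists are not separate results. The 15 immature neuron markers had a median of -0.12 with 0 called by limma in 6 arrays (1 higher at an unadjusted p under 0.05). Their median turned to 0.32 with 3 called higher in 5 arrays (background 0.993%). Of 7 vomeronasal neuron markers, 1 was called higher by limma in 6 arrays (background 0.0953%), Gnai2 (1.17, adjusted p = 0.0201). In 5 arrays 2 of these 7 were called higher, Gnai2 (1.13, adjusted p = 0.0076) and Vmn2r1 (2.46, adjusted p = 0.00995). Of 11 sustentacular markers, 0 were called in 6 arrays and 1 was called lower in 5 (background 1.67%). The part of these differences in the receptor values was not tested.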

How the data were processed

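The deposited values are log2 signals of probe sets, for which the submitters' processing notes name GCRMA and the Affymetrix Expression Console, without versions. Base 2 is inferred: values span 2.14 to 14.5, and the natural logarithm of a 16-bit reading stays under 11.1. Each array took 100 ng of RNA, per the labels. Because GCRMA removes a modelled background, dim values rest partly on that model. Scanner files were not used here, and the number of arrays, 3 per genotype, limits precision.

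Of 35557 probe sets, 21789 carried 1 symbol in the platform annotation, which can be old, and symbols were updated by Entrez number to RefSeq names of GRCm38.p6 (21698 matched). Where a gene had several probe sets, the brightest by its mean across the 6 arrays was used. No filter on low values was applied, so all 54 members entered the fit. Genotypes were contrasted by limma (version 3.58.1, R 4.3.3; lmFit, then eBayes; two-sided) over 19938 genes with Benjamini-Hochberg adjustment, and every adjusted p is from such a fit. An exact comparison of 3 against 3 values cannot give a p below 0.1 and was not run. The procedure was tested on simulated data for 3 against 3 arrays, in which 200 of 19938 genes were changed. It made 138 calls, and 8 were false. The share of true changes called was 49% at 2-fold and 81% at 4-fold, so real changes of these sizes can go uncalled. The changed genes were drawn from all genes, and the simulated scatter was independent between genes. In the data null replicate 1 lay below both other null arrays in 49 of the 54 receptors. The shares may therefore be lower for these receptors.

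Named receptors were those past an adjusted p of 0.05 with all arrays or without null replicate 1, the 5 with the highest heterozygous mean, the 3 largest differences each way, and relatives or neighbours of called receptors. From the other lists, members past the threshold or with the smallest p were eligible. Members of the stretches, Lhx2 and the genes beside the clusters were named outside this rule. The correlation of members with the called receptors, foreseen in the rule, is not given. The members and lists were chosen with earlier results of these data known. Subfamilies and gene order came from RefSeq names. Coding starts were compared without gaps at the best shift with at least 30 bases of overlap. Protein sequences were not used here. Alternatives were quantile normalisation, centring, a filter on signal, averaged probe sets, trend and robust settings, array weights, a floor of 4 log2 units, the replicate block and leaving out each array. Counts per stretch and subfamily without null replicate 1 were added after seeing the data.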

Additional observations from a re-analysis of the deposited data

How the results depend on the processing

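Olfr536 was called lower in all 13 alternative fits that tested it, with adjusted p from 0.000155 to 0.0396, Olfr473 in 10 of 13 (0.000528 to 0.0612) and Olfr476 in 8 of 13 (0.00269 to 0.143). Of the 6 further receptors, Olfr527 was called in 4 of 13 (adjusted p up to 0.245) and Olfr541 in 3 (up to 0.274). Olfr466, Olfr491, Olfr532 and Olfr539 were each called in 2 of 13, with adjusted p up to 0.323, 0.307, 0.406 and 0.488. Olfr476 was also lost with a floor of 4 log2 units (adjusted p = 0.0699). Leaving out 1 array at a time gave 1 to 9 members called lower and 0 called higher, and a median member difference of -0.67 to -0.02, with the highest values of both without null replicate 1. Over all genes it gave 38 to 333 lower and 2 to 198 higher calls, against 91 and 19. Array weights, which gave null replicate 1 a weight of 0.136, called 10 members lower, and 456 genes lower and 284 higher. The filter on signal kept 14 members, none of the 3 that fell among them, and called 0 members, 13 genes lower and 11 higher. The floor gave 41 genes lower. The replicate block left the same 3 members called (adjusted p up to 0.0498) and gave 83 genes lower and 5 higher. Same-numbered arrays had deviations correlated at 0.23, -0.33 and 0.54 for numbers 1, 2 and 3, and 3 of 6 arrays correlated best with their own number, so the numbers were not taken as pairs. The sign of Olfr498 turned with array weights (0.59), without heterozygous replicate 3 (0.09) and without null replicate 1 (0.74), and that of Olfr485 without null replicate 3 (-0.17), none past the threshold. Leaving out 1 array gave -0.64 to 0.74 for Olfr498 and -0.17 to 0.98 for Olfr485. Beyond the fewer genes or arrays in some fits, the cause of these shifts was not tested. Signal over background could not be examined, which limits the 9 members whose null values all lay under the lower quartile, 3 of which (Olfr472, Olfr474 and Olfr504) lay under it on all 6 arrays.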
